A study of Sus scrofa with 19 samples.

Results

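The interleukins, the chemokines and their receptors were followed in the adrenal glands of piglets 2 hours after an injection of LPS. LPS, lipopolysaccharide, is the component of the bacterial cell wall that sets off an acute inflammatory response. The genes are those whose array probe set carries a single symbol that begins with IL, CCL, CXCL, CCR or CXCR and a digit. IL6, IL10, CXCL8, CXCL9, CXCL11, CCL2 and CCL4 were set aside from the family. Where a symbol had several probe sets, the one with the highest mean was taken. The choice gave 86 genes out of 12218 different symbols on the array, from 91 probe sets. Of the 86, 63 had a mean log2 signal above 3.23, the level below which the dimmest 25% of probe sets lay, and were tested. The other 23 were described but not tested.

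The glands came from 19 male piglets, each from a different sow, and each was hybridised to 1 array. Sows received a control diet, a diet with fish oil or a diet with microalgae from gestation day 75, and either LPS or saline on gestation day 112. Piglets were weaned at 21 days and all of them received LPS themselves at 28 days, so no unchallenged gland is in the comparison. The groups held 3 piglets for control diet with maternal saline, 3 for control diet with maternal LPS, 4 for fish oil with saline, 4 for fish oil with LPS, 3 for microalgae with saline and 2 for microalgae with LPS. Breed, doses and the makeup of the diets were not given in the sources used here. Below, "maternal LPS" and "maternal saline" refer to the sow's injection. Piglets are named by the number in their label.

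Interleukins are secreted proteins that carry signals between immune cells and between immune cells and tissues, and most act through receptors of paired chains on the target cell. Chemokines are small secreted proteins that draw white blood cells along a gradient through receptors coupled to G proteins. In the adrenal gland, cytokines made by resident macrophages, endothelium and the steroid-producing cells can act on the output of glucocorticoids, which in turn restrain inflammation.

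Array medians ranged from 4.38 to 4.52 on the log2 scale, and the interquartile range of an array from 2.27 to 2.65. Pairs of arrays correlated at 0.934 to 0.982 over all 27558 probe sets, tested or not. Piglet 24 (fish oil, maternal LPS) had the narrowest array and held the highest value of 13.98% and the lowest of 14.8% of all 20668 tested probe sets. It was highest in 8 and lowest in 8 of the 63 members. Cortex markers were bright in all groups, with CYP17A1, which makes the precursors of glucocorticoids, at a mean of 12.36. Medulla markers were present too, with CHGB, a protein of secretory granules, at 10.80. Among immune cells, the macrophage markers ran from AIF1 at 3.23 to the complement gene C1QB at 7.45. The neutrophil markers ran from MPO at 3.42 to S100A12 at 6.11, with S100A8 the next brightest at 4.67. No label or file gave a slide, scan or extraction batch, so none could be tested. In whole glands, fewer cells of a type and less RNA per cell cannot be told apart.

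The brightest members were chemokines. CCL20, which attracts dendritic cells and lymphocytes through CCR6, had a mean signal of 12.05 ± 0.37 (SD, n = 19). CXCL10, the interferon-induced ligand of CXCR3, followed at 11.54 ± 0.30, and CXCL2, which draws neutrophils, at 10.33 ± 0.43. Then came IL6ST (8.51 ± 0.31), the gp130 signalling chain shared by receptors of the IL-6 family, and CXCL16 (8.02 ± 0.20), a scavenger receptor and ligand of CXCR6. CCL19 (7.40 ± 0.46) is a ligand of CCR7, IL4R (7.07 ± 0.26) is the shared chain of the IL-4 and IL-13 receptors, and IL13RA1 (6.96 ± 0.27) pairs with it. These are levels of probe sets, whose binding differs, so the order of 2 genes does not give the order of their transcripts.

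Among the other members, genes named interleukin that are not receptors were dim. The 29 genes of that class, which include soluble inhibitors and IL4I1, an enzyme that oxidises amino acids, had mean signals from 1.46 to 5.78, and 18 of them were tested. Its brightest was IL23A, the p19 chain of IL-23, at 5.78. The class does not hold IL6, which was set aside from the family and had a mean of 10.22. The 28 interleukin receptor genes spanned 1.83 to 8.51, with 20 tested. The 21 chemokines spanned 2.78 to 12.05, and all but CCL1 (2.78) were tested. The 8 chemokine receptors spanned 2.61 to 6.07, with 5 tested, and CXCR4, the receptor of CXCL12, was the brightest.

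**Figure D1:**
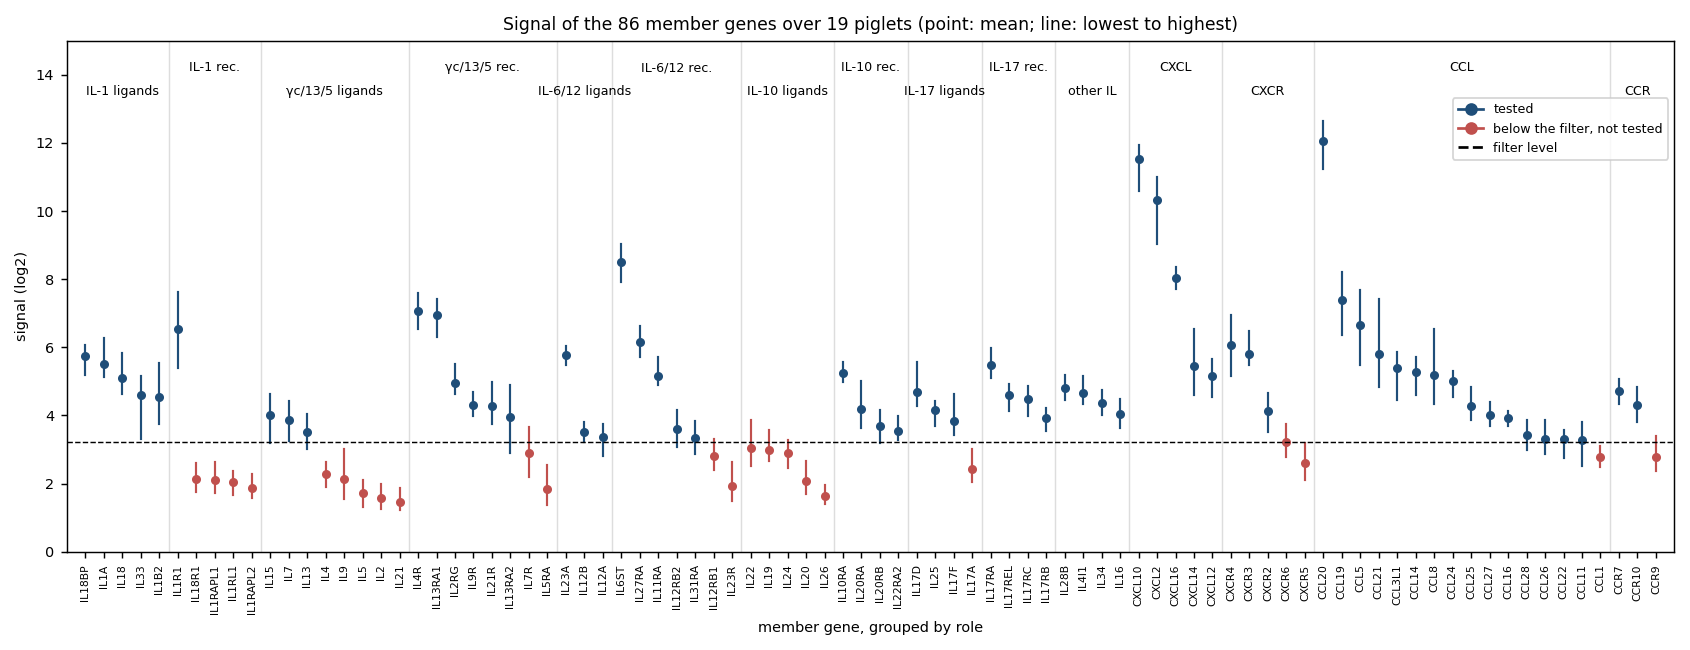
Signal of the 86 members on the log2 scale, grouped by role; each point is the mean over 19 piglets and each line runs from the lowest to the highest piglet. CCL20, CXCL10 and CXCL2 stand above 10, and the means of the 23 genes in red lie under the dashed filter level of 3.23.

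Several groups of interleukin genes lay mostly or wholly under the filter. All 5 members grouped here as ligands of the IL-10 family (IL19, IL20, IL22, IL24, IL26) did. IL10, set aside from the members, had a mean of 3.76. IL28B, an interferon lambda grouped with the other interleukin genes, had a mean of 4.81 and was tested. All 4 receptor genes of the IL-10 family (IL10RA, IL20RA, IL20RB, IL22RA2) were above the filter. IL22RA2 encodes a soluble protein that binds IL-22. Of the 8 ligands that share the common gamma chain or belong beside IL-13 and IL-5, only IL7, IL13 and IL15 were tested, and IL2, IL4, IL5, IL9 and IL21, all products of lymphocytes and mast cells, had means between 1.46 and 2.29. Of the 8 matching receptor genes, IL5RA (1.83) and IL7R (2.88) were not tested. In the IL-1 family all 5 ligands and inhibitors were tested and 4 of the 5 receptor genes (IL18R1, IL1RAPL1, IL1RL1, IL1RAPL2) were not. IL1R1, the signalling receptor of IL-1, was at 6.52. The IL-17 family had 3 of 4 ligands tested (IL17D, IL25, IL17F) with IL17A at 2.43, and all 4 receptor genes (IL17RA, IL17RC, IL17RB, IL17REL) tested. IL12RB1 (2.82) and IL23R (1.94) were the members of the IL-6 and IL-12 receptor group left out. The remaining untested members were the chemokine receptors CXCR6 (3.22), CXCR5 (2.61) and CCR9 (2.77). Nearest the filter were CCL11, an eosinophil attractant, just inside at 3.26 and CXCR6 just outside. For 4 tested members the mean of some group lay under the filter level.

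The standard deviation within groups ran from 0.12 to 0.73 over the tested members, with a median of 0.27. The distance from the lowest to the highest piglet had a median of 1.03 and a maximum of 2.58, and was under 1 for 30 of the 63 members. Between the lowest and the highest of the 6 group means the median distance was 0.37. The 8 members with the largest standard deviation over all piglets were CCL21 (0.67), IL13RA2 (0.60), IL1R1 (0.59), CCL8 (0.59), CCL5 (0.54), CXCL14 (0.49), IL9 (0.48, not tested) and CCL19 (0.46). CCL21 and CCL19 are the ligands of CCR7 that guide lymphocytes and dendritic cells, IL13RA2 is a decoy receptor of IL-13, and CCL8 and CCL5 attract monocytes and T cells.

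CCL21 showed the widest range. Its values were 5.44, 6.11 and 5.37 in control diet with saline, 4.83, 5.84 and 7.42 in control diet with LPS, and 4.90, 6.27, 5.40 and 6.48 in fish oil with saline. They were 5.99, 5.24, 6.66 and 5.32 in fish oil with LPS, 5.996, 5.91 and 6.51 in microalgae with saline, and 5.41 and 5.19 in microalgae with LPS. The lowest (piglet 6) and the highest (piglet 17) piglets belonged to the same group. The 5 members whose deviations from the group means were most like those of CCL21 over the 19 piglets were CXCL14 (r = 0.81), IL1R1 (0.67), CCL11 (0.62), CCL19 (0.60) and IL6ST (0.54). Without the 2 piglets farthest from the median of CCL21 these became 0.72, 0.52, 0.57, 0.48 and 0.41. They are given as a description: the points share arrays, and CCL21 and CCL19 are neighbours in the gene order of the Sscrofa11.1 assembly.

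CCL5 spanned its whole range within 1 group. Its highest value, 7.68 in piglet 12, and its lowest, 5.49 in piglet 22, were both in microalgae with saline, whose other piglet was at 6.53. The 2 piglets of microalgae with LPS were at 5.996 and 6.04. The control diet piglets lay from 6.31 to 6.94 and the fish oil piglets from 6.18 to 7.51, so the diets overlapped.

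**Figure D2:**
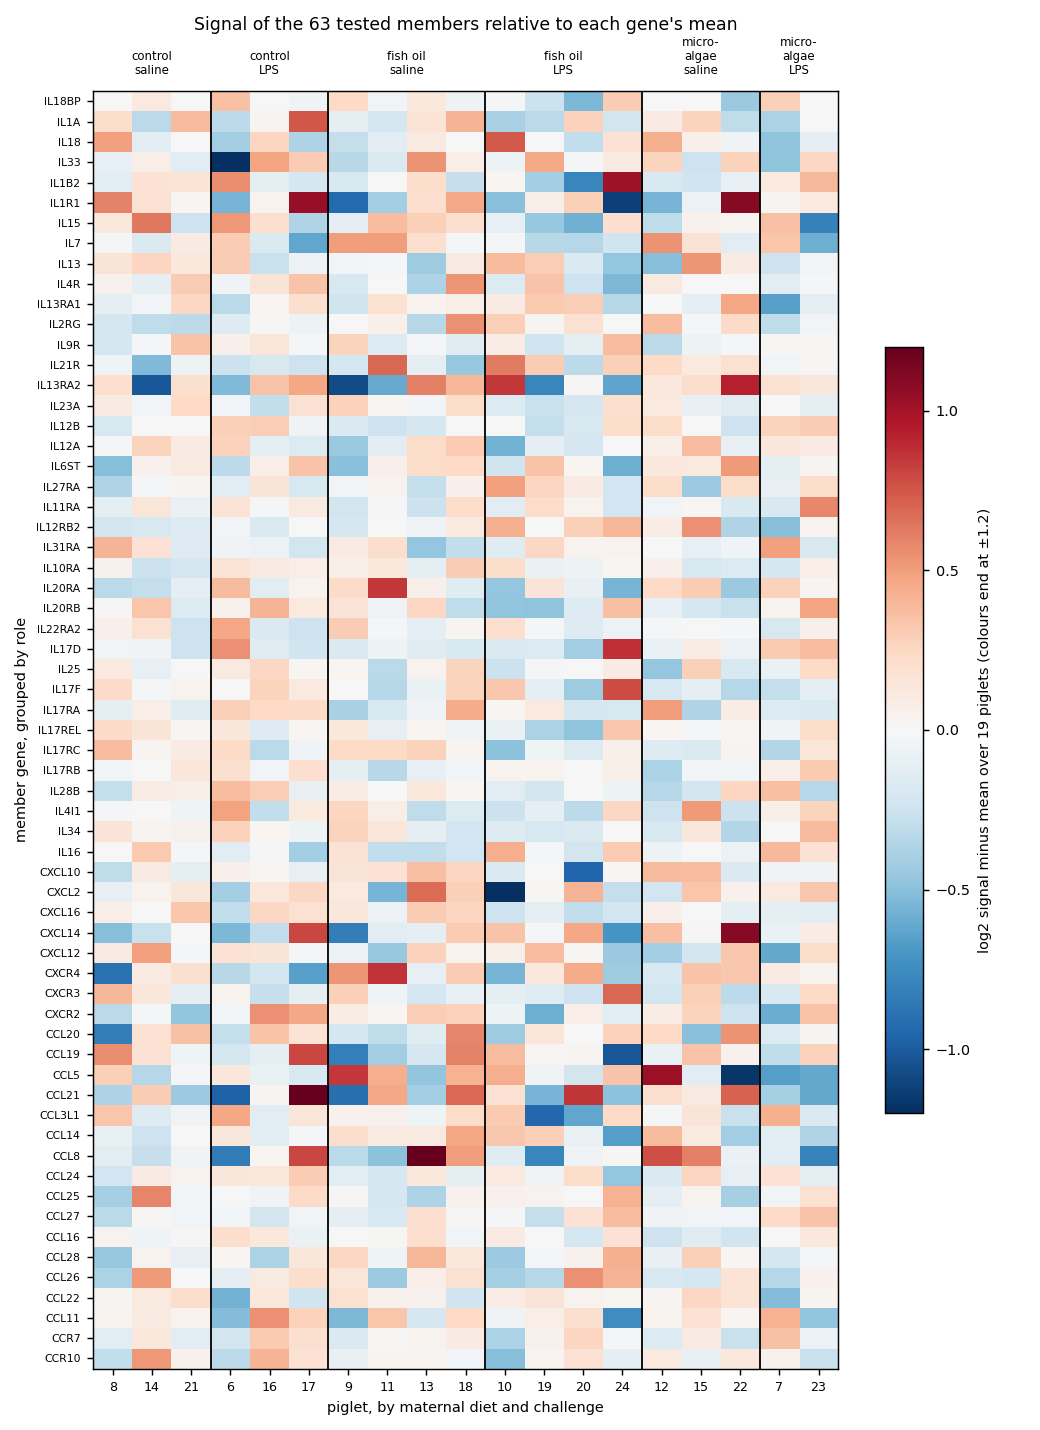
Log2 signal of the 63 tested members minus each gene's mean over 19 piglets; rows are genes ordered by role, columns are piglets ordered by maternal diet and challenge, and colours end at ±1.2. Piglets 6 and 17, both of control diet with maternal LPS, hold the lowest and the highest value of CCL21, 4.83 and 7.42.

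The first question of the design was whether maternal LPS altered these genes in the offspring, averaged over the diets. No member passed the adjusted threshold. Of the 63, 29 had a higher and 34 a lower mean with maternal LPS, and the median difference was -0.01 on the log2 scale, beside 0.01 over all probe sets. Limma's adjusted p was under 0.05 for 0.00968% of all tested probe sets and for no member. At an unadjusted p under 0.05 there were 4 members, while 6.97% of all tested probe sets reached that level.

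The 4 were IL17RB, IL12B, IL7 and CCL22, and each is reported as not past the adjusted threshold. IL17RB, the receptor of IL-25, was 0.20 ± 0.081 (SE) log2 units higher with maternal LPS (limma's adjusted p = 0.676). IL12B, the p40 chain of IL-12 and IL-23, was 0.21 ± 0.096 higher (adjusted p = 0.697). IL7, a survival factor of lymphocytes, had a difference of -0.33 ± 0.15 (adjusted p = 0.697). CCL22, which attracts T helper and regulatory cells, had a difference of -0.23 ± 0.11 (adjusted p = 0.697). Its mean of 3.31 was close to the filter level of 3.23. The group means with maternal LPS lay under that level in control diet (3.08) and microalgae (3.06). Without piglet 23 the difference of IL7 was -0.18, and without piglet 7 that of CCL22 was -0.13. Both piglets belong to the group of 2.

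For the brightest chemokines the intervals give the sizes of difference that the data allow. The mean difference of CCL20 with maternal LPS was 0.01, with a 95% interval from -0.38 to 0.40. That of CXCL2 was -0.10 (-0.51 to 0.32), and that of CXCL10 -0.22 (-0.48 to 0.05). For CXCL16 it was -0.19 (-0.38 to 0.00) and for IL6ST -0.08 (-0.39 to 0.22). All 63 members had 95% intervals inside ±1 log2 unit, a 2-fold difference, in the average over diets.

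Among CXC chemokines all 5 tested members (CXCL10, CXCL2, CXCL16, CXCL14, CXCL12) had a lower mean with maternal LPS, by a median of 0.10, and none reached an unadjusted p under 0.05. For CXCL2 the direction depended on the probe set. The one used gave -0.10, a pair with identical values -0.03, and the remaining one 0.0006. The 15 tested CC chemokines were divided, 6 higher and 9 lower. All 3 tested IL-17 family ligands were higher, by a median of 0.09, and all 3 tested ligands of the common gamma chain group were lower, with a median difference of -0.21. The directions are counts of means, not calls.

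Other genes of these pathways were taken as 4 lists: 2 of signalling inside the cell, 1 of other receptors and 1 of other ligands. Over all tested probe sets, 3.59% were lower and 3.37% higher with maternal LPS at an unadjusted p under 0.05. Of 14 tested genes of IL-1 and IL-17 receptor signalling, none passed the adjusted threshold, and 5 had a lower signal with maternal LPS at an unadjusted p under 0.05. IRAK4, the kinase at the head of the IL-1 receptor pathway, had a difference of -0.48 ± 0.13 (adjusted p = 0.413), and MYD88, its adaptor, one of -0.37 ± 0.11 (adjusted p = 0.510). TRAF3IP2, the adaptor of IL-17 receptors, TAB3 and CASP1, which cuts pro-IL-1β and pro-IL-18, were the others. Of 15 tested genes of cytokine receptor signalling, 2 were lower at that level, namely JAK2 (-0.42 ± 0.17) and STAT2 (-0.33 ± 0.14). Among 9 tested other receptors only ACKR1, a decoy chemokine receptor, reached it, with a difference of 0.22 ± 0.10. None of the 6 tested other ligands did.

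Within the control diet, maternal LPS was set against saline in 3 piglets each. The median difference of the 63 members was 0.04, with 39 higher and 24 lower. None passed the adjusted threshold (0% of all probe sets did), and 1 member reached an unadjusted p under 0.05, beside 1.74% of all probe sets. That member was CXCR2, the receptor through which CXCL8 and CXCL2 draw neutrophils. It measured 3.80, 4.11 and 3.65 with saline and 4.09, 4.67 and 4.59 with LPS. The groups overlapped by the single piglet at 4.09. The difference was 0.60 ± 0.24 (adjusted p = 0.9999).

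The groups did not overlap for 4 other members, all higher with maternal LPS, beside 5.98% of all probe sets in either direction. IL2RG, the common gamma chain shared by several interleukin receptors, was at 4.74, 4.65 and 4.64 with saline and 4.80, 4.97 and 4.89 with LPS. IL17RA, the shared chain of IL-17 receptors, was at 5.36, 5.56 and 5.33 against 5.76, 5.72 and 5.70. IL10RA, the ligand-binding chain of the IL-10 receptor, and CCL24, an eosinophil attractant, were the others. Macrophage markers moved with these genes. All 12 tested markers were higher with maternal LPS in the control diet by a median of 0.35, and their mean level per piglet was 4.83 to 5.20 with saline and 5.28 to 5.44 with LPS. Neutrophil markers were higher for 4 of 5, with levels from 4.09 to 4.50 and from 4.09 to 4.75. Their part in the result was not tested.

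Within the fish oil diet, 4 piglets were compared with 4. No member passed the adjusted threshold, as no probe set did. At an unadjusted p under 0.05 there were 5 members, all lower with maternal LPS, beside 2.88% of all probe sets in that direction and 4.27% in either. The 5 were CXCL16, CXCL10, IL7, IL17RC and IL20RA. Over all 63 members the median difference was -0.03, with 29 higher and 34 lower.

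CXCL16 measured 8.16, 7.95, 8.33 and 8.29 with maternal saline and 7.77, 7.92, 7.73 and 7.80 with maternal LPS. Every LPS piglet was below every saline piglet, by a narrow gap between 7.95 and 7.92. The difference was -0.38 ± 0.14, with a 95% interval from -0.67 to -0.08 (adjusted p = 0.911).

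CXCL10 measured 11.69, 11.71, 11.90 and 11.80 with saline and 11.36, 11.55, 10.59 and 11.56 with LPS. Again the groups did not overlap, and piglet 20, at 10.59, was the lowest of all 19. The difference was -0.51 ± 0.19 (95% interval -0.91 to -0.12, adjusted p = 0.911). Without piglet 20 it was -0.29, which did not reach an unadjusted p under 0.05, and without piglet 24 it was -0.61.

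IL17RB, higher with LPS, was the only other of 3 members with no overlap, beside 2.18% of all probe sets. It was at 3.79, 3.58, 3.81 and 3.88 with saline and 3.95, 3.95, 3.92 and 3.98 with LPS. Its difference in this diet, 0.19 ± 0.12, did not reach an unadjusted p under 0.05.

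IL7 measured 4.38, 4.38, 4.08 and 3.85 with saline and 3.86, 3.55, 3.54 and 3.64 with LPS. The groups met at 3.85 and 3.86, and the difference was -0.53 ± 0.22 (adjusted p = 0.999). IL17RC, the chain that pairs with IL17RA, was at 4.72, 4.72, 4.76 and 4.51 against 3.99, 4.43, 4.32 and 4.55. Its difference was -0.35 ± 0.16 (adjusted p = 0.999). IL20RA, a receptor chain for IL-19, IL-20 and IL-24, was at 4.41, 5.02, 4.24 and 4.03 against 3.71, 4.33, 4.09 and 3.62. Its groups overlapped, its difference was -0.49 ± 0.22 (adjusted p = 0.999), and without piglet 11, at 5.02, it was -0.29. The genes of IL-19, IL-20 and IL-24 were all under the filter.

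**Figure D3:**
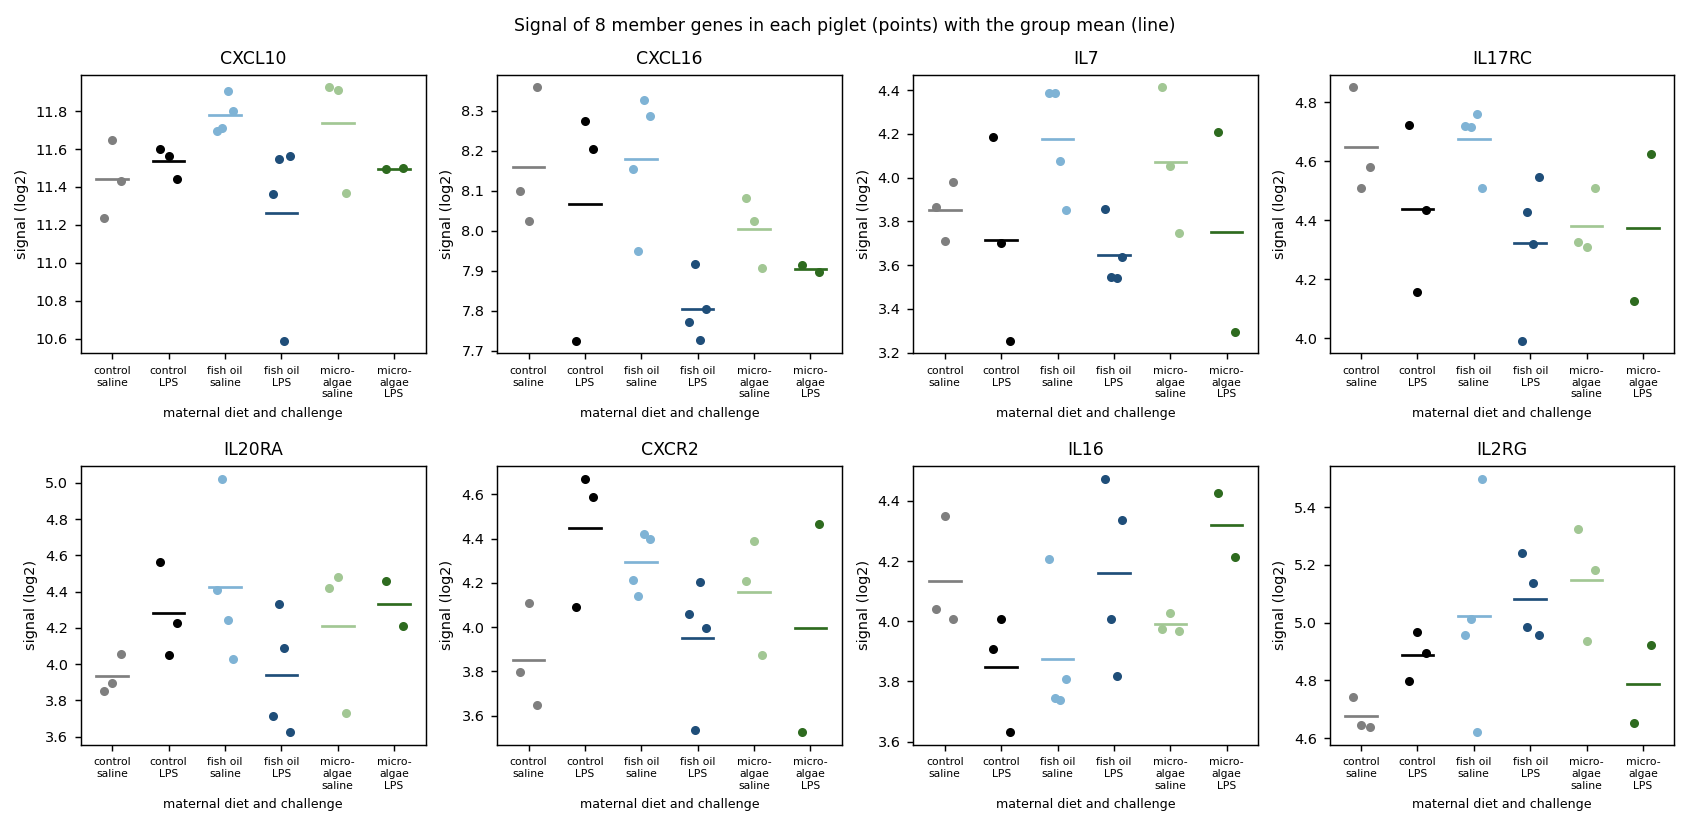
Log2 signal of 8 members in each piglet (points) with the group mean (line), by maternal diet and challenge; the vertical axes do not start at 0. In fish oil, the 4 LPS piglets lie under the 4 saline piglets for CXCL10 and CXCL16, while the groups overlap for IL17RC and IL20RA.

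The interferon-induced chemokines set aside from the family were also lower with maternal LPS in the fish oil diet. CXCL11 had group means of 7.65 with saline and 5.83 with LPS, and CXCL9 of 8.38 and 7.16. The differences were -1.82 ± 0.54 and -1.22 ± 0.44 (adjusted p = 0.533 and 0.872). All 7 genes set aside were lower, by a median of 0.54. In the signalling lists, CASP1 had a difference of -0.82 ± 0.18 (adjusted p = 0.253), JAK2 -0.84 ± 0.26 and STAT2 -0.76 ± 0.20. IRAK4 and TRAF3IP2 were also lower at an unadjusted p under 0.05, and no gene of these lists was higher at that level. Of all probe sets, 2.88% were lower at that level and 4.27% reached it in either direction.

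Markers of other cell types were measured beside these genes. Of 12 macrophage markers 10 were lower with maternal LPS, by a median of 0.20, with levels per piglet from 5.004 to 5.83 with saline and 4.99 to 5.51 with LPS. Medulla markers were lower for 4 of 4, at 6.90 to 8.21 against 6.69 to 7.65. Fibroblast markers were higher for 7 of 7, at 5.12 to 6.13 against 5.04 to 6.72. With the medulla level as a covariate, CXCL16 had a difference of -0.42, IL7 one of -0.35 and IL20RA one of -0.31, and the last 2 did not reach an unadjusted p under 0.05. IL17RC had one of -0.33, the smallest of its 10 alternatives, of which 9 had an unadjusted p under 0.05. For CXCL10 all 10 alternatives lay between -0.61 and -0.46, each with an unadjusted p under 0.05. The part of macrophages and fibroblasts was not tested.

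Within the microalgae diet, 2 piglets with maternal LPS were compared with 3 with saline. No member passed the adjusted threshold (0% of all probe sets did), and 1 reached an unadjusted p under 0.05 where 11.7% of all probe sets did. That member was IL17RB, at 3.53, 3.88 and 3.88 with saline and 3.99 and 4.23 with LPS, a difference of 0.34 ± 0.16 (adjusted p = 0.417). Without piglet 23 it was 0.23 and did not reach an unadjusted p under 0.05. The groups did not overlap for 18 members, 10 higher and 8 lower with maternal LPS, beside 31.6% of all probe sets. The median difference was -0.07, with 28 members higher and 35 lower. Intervals were widest here: 53 of 63 lay inside ±1 log2 unit, beside 60 in fish oil and 57 in the control diet. The lowest difference of the 63 was that of CCL8, -0.90. Of the 7 genes set aside, 6 were lower with maternal LPS, with a median difference of -0.60, and 3 of these reached an unadjusted p under 0.05. CXCL11 had group means of 7.38 with saline and 5.69 with LPS, and CXCL9 of 8.03 and 6.93.

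A further question was whether the effect of maternal LPS depended on the diet. It was tested as the difference between the effect in an omega-3 diet and that in the control diet. Both of these tests use the same 6 control diet piglets, so they are not independent of each other. No member passed the adjusted threshold in either, and 0% of all probe sets did. At an unadjusted p under 0.05 there were 4 members for fish oil, where 2.64% of all probe sets reached it, and 3 for microalgae, where 5.41% did. The median of the 63 differences was -0.15 for fish oil, with 42 lower and 21 higher, beside -0.00 for all probe sets, and -0.05 for microalgae.

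CXCR2 gave the widest difference of effects for fish oil. Its effect of maternal LPS was 0.60 in the control diet, -0.34 in fish oil and -0.16 in microalgae. In fish oil the saline piglets were at 4.21, 4.14, 4.42 and 4.40 and the LPS piglets at 4.06, 3.53, 4.20 and 3.997. The difference of effects was -0.94 ± 0.31, with a 95% interval from -1.60 to -0.28 (adjusted p = 0.9999). For microalgae it was -0.76 ± 0.36 (adjusted p = 0.858). There the LPS piglets were at 3.53 and 4.47, far apart, and without the lower one, piglet 7, the difference was -0.29.

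Macrophage markers moved the same way as CXCR2. In the fish oil test all 12 had a lower effect of maternal LPS than in the control diet, with a median difference of -0.60, and in the microalgae test 11 of 12, with a median of -0.65. Of 5 neutrophil markers 4 were lower in each. CXCR2 is a receptor of neutrophils, and the part of these cells in its values was not tested.

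IL16, a ligand of CD4 that attracts T cells, went the opposite way. Its values in the control diet were 4.04, 4.35 and 4.01 with saline and 3.91, 4.01 and 3.63 with LPS. In fish oil they were 4.21, 3.74, 3.74 and 3.81 against 4.47, 4.01, 3.82 and 4.34, and in microalgae 3.97, 4.03 and 3.97 against 4.43 and 4.21. In microalgae both LPS piglets were above the 3 saline piglets, and in fish oil 2 of the 4 LPS piglets were above all 4 saline piglets. The differences of effects were 0.57 ± 0.24 for fish oil (adjusted p = 0.9999) and 0.61 ± 0.28 for microalgae (adjusted p = 0.858).

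IL20RA had an effect of 0.34 in the control diet and -0.49 in fish oil, a difference of -0.83 ± 0.34 (adjusted p = 0.9999). Its control diet values were 3.85, 3.90 and 4.06 with saline and 4.56, 4.05 and 4.23 with LPS, which overlapped by 1 piglet. Without piglets 6 and 24 the difference was -0.59 and did not reach an unadjusted p under 0.05. CXCL10 had effects of 0.09 and -0.51, a difference of -0.61 ± 0.29 (adjusted p = 0.9999), and without piglet 20 it was -0.38. IL2RG had effects of 0.21 in the control diet and -0.36 in microalgae, a difference of -0.57 ± 0.27 (adjusted p = 0.858).

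**Figure D4:**
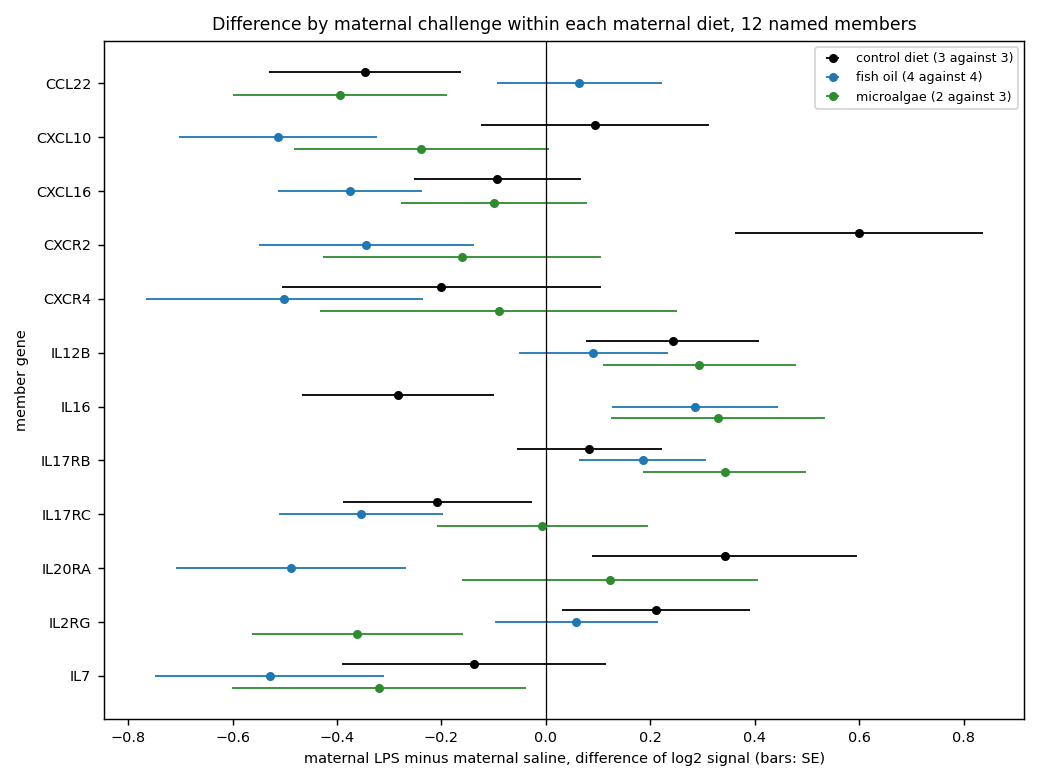
Difference in log2 signal between maternal LPS and maternal saline within each diet (point) with its standard error (bar), for the 12 members named in any comparison. CXCR2 lies at 0.60 in the control diet and under 0 in both omega-3 diets, and IL16 lies the other way round.

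The diets were then compared, averaged over both maternal challenges. For fish oil against control, no member passed the adjusted threshold (0% of all probe sets), and 2 reached an unadjusted p under 0.05 where 2.69% of all probe sets did. The median difference was -0.05, with 23 members higher and 40 lower. CXCR4, which holds leukocytes in tissues that make CXCL12, ranged from 5.17 to 6.26 in the 6 control diet piglets and from 5.51 to 6.94 in the 8 fish oil piglets. The ranges overlapped widely, and the difference was 0.45 ± 0.20 (adjusted p = 0.9999), or 0.27 without piglet 8. IL2RG was higher with fish oil by 0.27 ± 0.12 (adjusted p = 0.9999). T and NK cell markers were higher in fish oil for 11 of 12, by a median of 0.20, and fibroblast markers lower for 7 of 7, with a median difference of -0.84. Macrophage markers were higher for 11 of 12, by a median of 0.19, and cortex markers for 4 of 4, by a median of 0.16. Their part in the values of CXCR4 and IL2RG was not tested.

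Split by challenge, CXCR2 was lower in fish oil than in control diet after maternal LPS by 0.50 ± 0.22, a difference of -0.50 (adjusted p = 0.9999). It was the single member at an unadjusted p under 0.05, where 3.34% of all probe sets were. In that comparison 44 of 63 members were lower, with a median of -0.11. IL17RA was the member whose groups did not overlap, beside 3.36% of all probe sets, with the 3 control piglets at 5.70 to 5.76 and the 4 fish oil piglets at 5.26 to 5.59. After maternal saline 0 members reached that level (2.13% of all probe sets did, and 0% at the adjusted level in either challenge), and 4 did not overlap, beside 4.12%. CXCL10, CXCR2 and CCL14, an attractant of monocytes, were higher in fish oil. IL13, a cytokine of type 2 immunity, was lower, at 3.63 to 3.77 in control diet and 3.08 to 3.62 in fish oil.

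For microalgae against control no member reached even an unadjusted p under 0.05, where 1.65% of all probe sets did, and 0% of probe sets passed the adjusted threshold. The median difference was -0.05, with 25 higher and 38 lower. The 5 microalgae piglets did not overlap with the 6 control piglets for 2 members, beside 0.111% of all probe sets. IL21R, the receptor of IL-21, was at 4.25 to 4.52 in microalgae and 3.75 to 4.23 in control diet, a difference of 0.31 ± 0.19. IL17F, a ligand of IL17RA and IL17RC, was at 3.498 to 3.74 in microalgae and 3.83 to 4.11 in control diet, a difference of -0.31 ± 0.18. The nearest piglets of the 2 diets were at 4.25 and 4.23 for IL21R and at 3.74 and 3.83 for IL17F, gaps narrower than the standard deviations within groups, 0.32 and 0.30. T and NK cell markers were higher in microalgae for 11 of 12, by a median of 0.19. Endothelial markers were lower for 7 of 7, with a median difference of -0.15. Their part in the values of IL21R and IL17F was not tested.

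After maternal saline, IL2RG was higher in microalgae, at 5.33, 4.94 and 5.18 against 4.74, 4.65 and 4.64, a difference of 0.47 ± 0.18 (adjusted p = 0.9998). It was 1 member of 63 at an unadjusted p under 0.05, with 2.72% of all probe sets there. The groups did not overlap for 6 members, beside 7.84% of all probe sets. They were IL2RG, IL21R, IL6ST and CXCL14, higher in microalgae, and IL17F and CCL16, lower. CXCL14, a chemokine of epithelium and stroma, was at 5.80, 5.45 and 6.53 against 4.93, 5.17 and 5.45, a difference of 0.74 ± 0.37. After maternal LPS, IL16 was 0.47 ± 0.21 higher in microalgae (adjusted p = 0.999), the single member at an unadjusted p under 0.05, where 3.64% of all probe sets were.

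Between the 2 omega-3 diets, IL12B was lower in fish oil by 0.25 ± 0.12, a difference of -0.25 (adjusted p = 0.9999). It was 1 of 63 members at an unadjusted p under 0.05, beside 2.85% of all probe sets, and 0% passed the adjusted threshold. Its piglets were at 3.21 to 3.72 in fish oil and 3.25 to 3.81 in microalgae, so the diets overlapped. Over the members 31 were higher and 32 lower in fish oil, with a median of -0.00.

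For the diet averages the intervals were again narrow for most genes. In fish oil against control 62 of 63 members, and in microalgae against control 62, had a 95% interval inside ±1 log2 unit. The difference of CCL20 was 0.00 (-0.44 to 0.45) for fish oil and 0.02 (-0.48 to 0.53) for microalgae. That of CXCL2 was -0.09 (-0.57 to 0.39) and 0.13 (-0.42 to 0.67). For the difference of effects 41 of 63 intervals lay inside ±1 for fish oil and 34 for microalgae, and for the rest the interval reached past a 2-fold difference in at least 1 direction.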

How the data were processed

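Whole adrenal glands of 19 piglets were measured on 1-colour Affymetrix arrays, with RNA extracted by the RNeasy kit and labelled by the WT PLUS kit, per the labels' protocols. Each piglet has 1 deposited column of log2 values; the base was read from the span of 0.263 to 13.5. Transcriptome Analysis Console 4.0 is listed, per the submitters' processing notes. Summarization and normalization are not given in the sources used here. Values were used as deposited.

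Of 27558 probe sets, 13157 have 1 symbol in the array annotation, 523 several and 13878 none. Of the 86 members, 85 matched a RefSeq gene of the Sscrofa11.1 assembly by gene ID and symbol. IL28B is an older name of interferon lambda 3. CXCL2, IL18BP and IL25 have more than 1 probe set, and 3 probe sets that list several entries with such symbols were not used. The 6890 probe sets under 3.23 were left out and 20668 were tested.

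Limma 3.58.1 (R 4.3.3) was fitted with 1 mean per group, an intensity trend, 13 residual and 4.62 prior degrees of freedom. Tests were two-sided, in 13 comparisons, with Benjamini-Hochberg adjustment over all tested probe sets and a threshold of 0.05. SE and 95% intervals are those of the model and are not adjusted. The fit was tested on simulated data with independent noise, for maternal LPS averaged over the diets only. Comparisons within a diet, between diets and of effects were not simulated. Named members are those past the threshold, up to 5 each way at the smallest unadjusted p under 0.05, the 8 brightest, the 8 most variable and those nearest the filter. Genes described for groups that do not overlap, for neighbouring values or beside these were chosen after their values were seen. The members and gene lists were chosen with earlier results of these data known. Alternatives were no filter, a stricter filter, the mean of all probe sets of a symbol, median centring, quantile normalization, array weights, the array spread or medulla level as covariate, an additive model, no intensity trend, leaving out piglets 6 and 24, and leaving out each piglet in turn. Precision is limited by the 2 to 4 arrays of a group.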

Additional observations from a re-analysis of the deposited data

Results flagged for a closer look

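In the groups of 4 piglets, 24 sets of values of the 12 named members were looked at for a piglet apart from the other 3, and 2 had one; chance gives about 1 in 20. IL16 in fish oil with saline was 4.21 in piglet 9 and 3.74 to 3.81 in the others. IL17RC in the same group was 4.51 in piglet 18 and 4.72 to 4.76 in the others.

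For each of 63 members the effect of maternal LPS in fish oil, and that in microalgae, was compared with that in control diet. Both tests use the same control diet piglets, so they are not independent of each other. Of all probe sets, 2.64% had an unadjusted limma p under 0.05 for fish oil and 5.41% for microalgae. Among the members, 7 pairs of member and diet reached that level, and none passed the adjusted threshold. Between fish oil and control diet the differences of effects were -0.94 for CXCR2, -0.83 for IL20RA, -0.61 for CXCL10 and 0.57 for IL16. Between microalgae and control diet they were -0.76 for CXCR2, 0.61 for IL16 and -0.57 for IL2RG.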

How the results depend on the processing

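In 30 other settings, 19 of which leave out 1 piglet each, no member passed limma's adjusted threshold in any of the 13 comparisons, and the smallest adjusted p of a member was 0.225. All 24 named differences kept their sign in each setting that tested them. CXCL16 within fish oil and the difference of effects of CXCR2 between fish oil and control diet were the 2 with an unadjusted p under 0.05 in all of them. Counts of members at an unadjusted p under 0.05 moved by over 1.5 times: over the alternatives that keep or recode the piglets or drop 2, from 0 to 7 for maternal LPS over the diets (4 as reported), 3 to 9 within fish oil (5), 1 to 5 for fish oil against control (2), 0 to 3 for microalgae against control (0), and within 0 to 7 for each of the other 9 comparisons. Without piglet 24 the counts were 8 within fish oil and 7 for fish oil against control after maternal LPS. The share of all probe sets at that level was not counted in these settings. The counts therefore do not show whether the members moved more than other genes.

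The median member difference moved by more than the spread between piglets in these settings. Within fish oil it was -0.0847 with the medulla level as covariate (-0.03 as reported), and within microalgae -0.17 after median centring (-0.07). Between the effects in microalgae and control diet it was -0.13 after median centring, 0.0257 with array weights and 0.0300 with the medulla level (-0.05). Leaving out 1 piglet gave -0.0846 to 0.0340 for microalgae against control after maternal LPS (0.0340 without piglet 7), -0.160 to -0.0790 for the difference of effects in fish oil, and -0.0895 to 0.0537 for that in microalgae. The causes were not tested. Where a microalgae piglet with maternal LPS was left out, the lone array is assumed to vary like the other groups. No paired analysis was possible because the labels carry no replicate numbers that groups share.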
